A study of Mus musculus with 40 samples.

Results

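Head impact was compared with sham in mice that received memantine. The 10 memantine HF-HI libraries and the 10 memantine sham libraries were taken by their column names from a table of 40 libraries. The other 20 libraries, 10 saline HF-HI and 10 saline sham, served to estimate the spread and as the arm without drug. All mice were C57BL/6 males aged 12 weeks. Memantine or saline was injected i.p. daily 1 h before a sham procedure or before repeated impacts to the head (HF-HI, high-frequency head impact), and RNA was taken from whole dissected cortex 24 h after injury. No group carried an engineered allele, and the sham libraries shared the injections. The labels give no animal numbers, so p-values measure the spread between these libraries. The 20 libraries held 13322404 to 17529644 reads over 6831 transcripts, which were added up to 5863 gene sums. The transcript with the lowest mean level had a count of 549, so weakly expressed genes were not analysed here.

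Memantine enters the open channel of NMDA-type glutamate receptors and blocks calcium entry through them. The comparison asks which transcripts differ after impact in mice given the drug 1 h before the impacts. Whether the channel was still blocked when RNA was taken, 24 h after injury, was not tested. Several gene groups are often read in injured cortex. Complement proteins such as C1q and C4 tag debris and synapses, and they come from microglia and astrocytes. Astrocytes that react to injury build more of the filament protein GFAP. Immediate early genes and glutamate receptor subunits report on neuronal activity and on the synapse.

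C4b, which encodes complement component C4, rose after impact under memantine and was the only transcript that passed the test. Its level in the memantine sham libraries ran from 424 to 535 normalised counts with a median of 475. In the memantine HF-HI libraries it ran from 557 to 878 with a median of 654. Every HF-HI library was above every sham library. The means were 478 ± 39.8 and 667 ± 92.4 (SD, n = 10 each), a rise of 39.5%, or 0.47 ± 0.07 in log2 of the count plus 1 (difference ± SE, 95% interval 0.34 to 0.61). The moderated test of limma on the deposited scale gave an adjusted p of 0.000298 among transcripts and of 0.000177 among gene sums. A permutation test over the 20 libraries (100000 resamples, two-sided) gave 1e-05, the smallest value it can give. Of all gene sums, 0.0171% (C4b alone) had groups that did not overlap.

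C4b lies on chromosome 17 (mm10, chr17:34728139-34743902, minus strand) beside C4a, a near copy that was not among the tabulated transcripts. Read sharing between the copies would change what a C4b count means, so their coding sequences were set side by side (GENCODE vM21). Over 5204 aligned coding bases of C4b, 201 differed from C4a, an identity of 96.1%. Of the 5115 windows of 100 bases in the C4b coding sequence, 83.6% held at least 1 difference. The 90-base stretch of a single exon with the most differences lies in exon 21 of 41 (chr17:34735430-34735519), against chr17:34816086-34816175 in C4a. It is shown 5′ to 3′ on the coding strand with the 14 differing bases in capitals.
C4b: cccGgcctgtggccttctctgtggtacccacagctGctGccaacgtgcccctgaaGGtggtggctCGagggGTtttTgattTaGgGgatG
C4a: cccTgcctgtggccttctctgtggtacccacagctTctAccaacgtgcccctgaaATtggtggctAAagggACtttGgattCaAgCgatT
A read over this stretch tells the copies apart, and a read in the windows without a difference does not. The share of C4b counts that came from C4a was not tested.

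The list of complement and antigen presentation genes held 27 symbols, of which 6 were in the table. Of these 6, 5 were higher in memantine HF-HI at an unadjusted p under 0.05 and none was lower, while 2.34% of all gene sums were higher and 2.1% were lower at that level. Only C4b passed the adjusted threshold of 0.1. The median log2 ratio of the 6 genes was 0.17, against -0.00 for all gene sums. Their mean level relative to the average of 40 libraries ran from 0.869 to 0.962 in sham and from 0.979 to 1.09 in HF-HI. These ranges, which include C4b, did not overlap. For the other 5 genes the level ran from 0.871 to 0.998 and from 0.988 to 1.07, and the groups overlapped. With the features of lowest level left out, 3 genes of the list remained, C4b not among them, and 2 were higher. The saline arm had a median of 0.14 for this list, with 4 higher and none lower. Under saline 5.1% of all gene sums were higher and 5.59% lower at an unadjusted p under 0.05.

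C1qa, a chain of C1q that starts the classical pathway (chr4:136895916-136898844), ran from 469 to 605 in sham, median 523, and from 497 to 735 in HF-HI, median 597. The groups overlapped, with 9 of 10 HF-HI libraries above the sham mean, and the adjusted p was 0.889 (limma). B2m, the light chain of MHC class I, had means of 803 ± 61.7 and 880 ± 45.1 normalised counts (SD, n = 10). All 10 HF-HI libraries lay above the B2m sham mean, and its adjusted p was 0.962 (limma). Ctss, the lysosomal protease cathepsin S, had means of 801 ± 51.3 and 884 ± 64.6, with 8 of 10 libraries above the sham mean and the same adjusted p of 0.962. C1ql3, a secreted C1q-like protein of synapses that is not part of the complement cascade, had means of 2652 ± 264 and 2660 ± 282. Its 95% interval in log2 counts ran from -0.16 to 0.16.

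**Figure D1:**
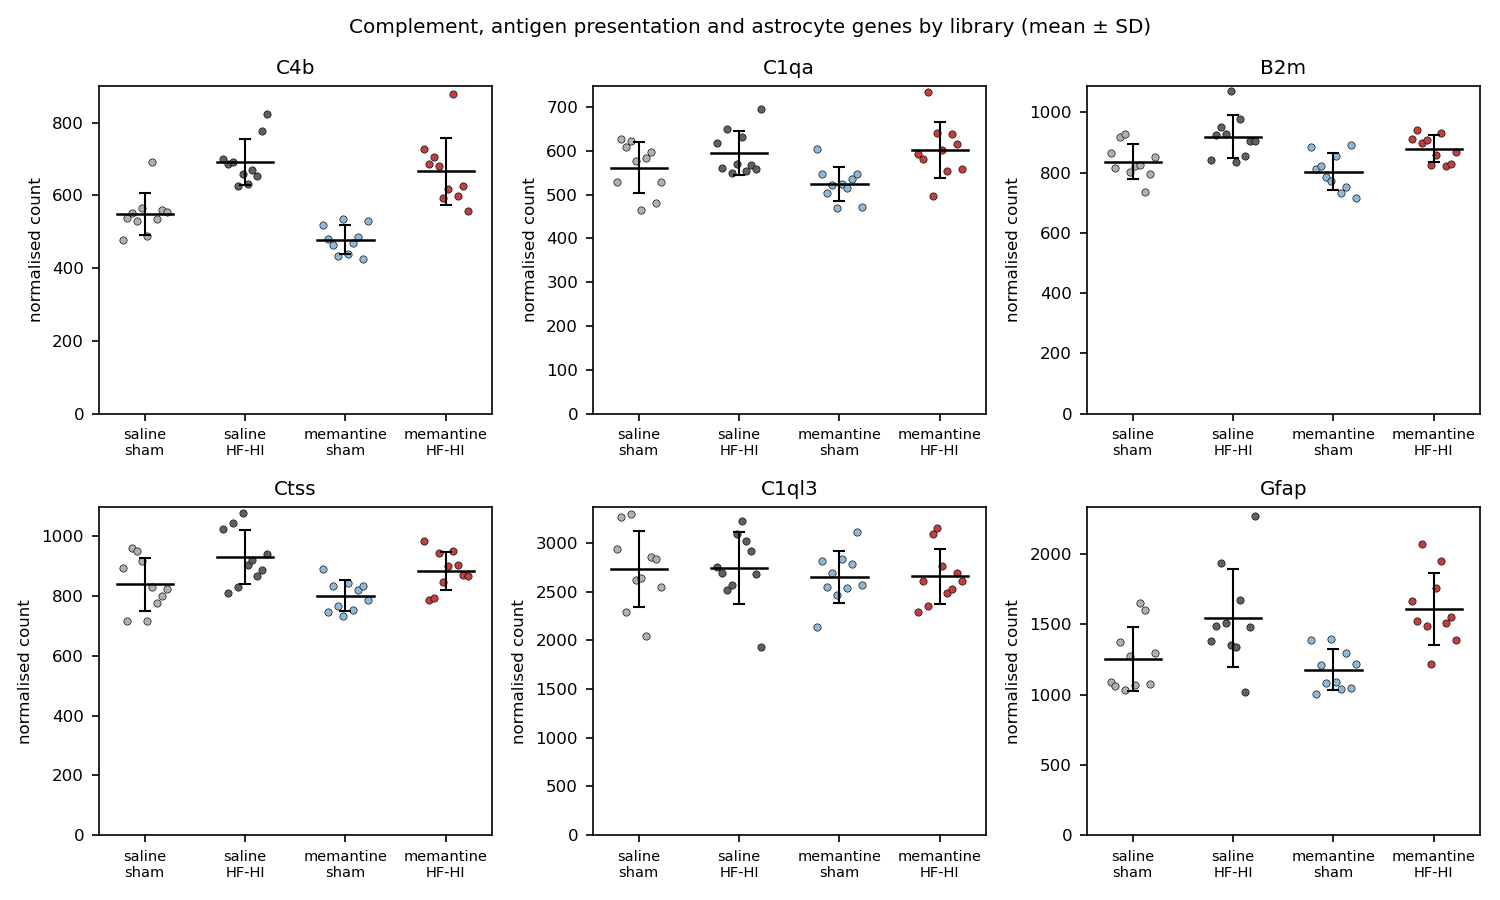
Normalised counts (vertical axis, from 0) of 6 gene sums in each of the 40 libraries, by group. Points are libraries, bars the mean and SD of 10 libraries; for C4b the memantine HF-HI points (557 to 878) lie above all memantine sham points (424 to 535).

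Gfap, the intermediate filament of astrocytes (chr11:102887336-102897200), was the only member of the 20-gene reactive astrocyte list in the table. Its sham libraries ran from 1004 to 1394 normalised counts with a median of 1150. The HF-HI libraries ran from 1218 to 2070 with a median of 1540. The ranges overlapped, but all 10 HF-HI libraries were above the sham mean and 8 exceeded the highest sham library. The means were 1179 ± 146 and 1613 ± 257 (SD, n = 10), a log2 difference of 0.45 ± 0.11 (SE). The unadjusted p was 0.000257 and the adjusted p 0.351 among transcripts (limma), and the permutation p was 0.00011. Gfap therefore did not pass over all transcripts, although its difference was close in size to that of C4b.

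Within a group, libraries with more C4b tended to have more Gfap, over 10 libraries each. Pearson's r between their log2 counts was 0.74 in memantine sham (permutation p = 0.0185, Spearman's rho 0.66, p = 0.0420) and 0.69 in memantine HF-HI (permutation p = 0.0270, rho 0.75, p = 0.0171). Adjusted over the 6 relations of C4b with other genes that were computed, both p-values were 0.0810. Without the 2 libraries farthest from the C4b median, r was 0.60 and 0.55 (exact permutation p = 0.118 and 0.159, 8 libraries each), so the relation no longer passed at the smaller number and narrower range. The relation of C4b with C1qa had an r of -0.25 in sham and -0.17 in HF-HI (permutation p = 0.498 and 0.638, rho -0.35 and -0.24, adjusted p = 0.638 for both).

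The astrocyte list was mixed. Of 28 measured astrocyte genes, 1 was higher and 3 were lower at an unadjusted p under 0.05, and the median log2 ratio was -0.01. The shares over all gene sums were 2.34% higher and 2.1% lower. The 1 higher gene was Gja1, the gap junction protein connexin 43, with means of 2818 ± 222 and 3023 ± 160 normalised counts (SD, n = 10; adjusted p = 0.962, limma). For Gja1 9 of 10 HF-HI libraries were above the sham mean, and the log2 difference was 0.10 ± 0.04 (SE). Dio2, the deiodinase with which astrocytes activate thyroid hormone, ran from 1937 to 2558 in sham, median 2119, and from 1667 to 2010 in HF-HI, median 1928. All 10 HF-HI libraries were below the Dio2 sham mean, the log2 difference was -0.22 ± 0.06 (SE) and the adjusted p was 0.862 (limma, gene sums). Ntsr2, a neurotensin receptor, differed by -7.20% in mean count, with an adjusted p of 0.962 (limma). Megf10, a receptor for engulfment of debris and synapses, had means of 929 ± 61.0 and 834 ± 66.4, and 9 of 10 HF-HI libraries lay below its sham mean (adjusted p = 0.862, limma).

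Of 20 microglial genes, 6 were measured, and 2 of them, C1qa and Ctss, also stand in the complement list. Both of those were higher at an unadjusted p under 0.05, as were 2.34% of all gene sums. The remaining 4 were not. Csf1r, the growth factor receptor of microglia, had means of 1529 ± 111 and 1605 ± 118 normalised counts (SD, n = 10). Cx3cr1, the fractalkine receptor, had means of 663 ± 70.4 and 633 ± 100, and P2ry12, a purine receptor of resting microglia, 573 ± 66.5 and 564 ± 66.1. The summed relative level of the 6 genes ran from 0.906 to 1.06 in sham and from 0.885 to 1.11 in HF-HI, with overlap. In whole cortex, more cells of a type and more RNA per cell cannot be told apart.

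Across all transcripts the difference between impact and sham under memantine was small. At an unadjusted p under 0.05, 315 of 6831 transcripts (4.61%) were counted, 163 higher (2.39%) and 152 lower (2.23%), and 1 (0.0146%) passed the adjusted threshold of 0.1. A threshold of 0.05 lets through 342 of 6831 transcripts where nothing differs. Among gene sums, 260 of 5863 (4.43%) were counted, 137 higher and 123 lower, and 1 (0.0171%) passed. The split moved with the scaling of the libraries: 245 of 368 transcripts were higher after each library was centred on its median and 209 of 336 after quantile normalisation. The middle range of log2 ratios, from the first to the third quartile of gene sums, was -0.03 to 0.03, and 11 gene sums differed by more than 1.5-fold in mean count. The 95% interval of a gene sum's log2 difference had a median half-width of 0.09. For 5082 of the 5863 gene sums the whole interval lay within a 1.2-fold change in either direction.

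**Figure D2:**
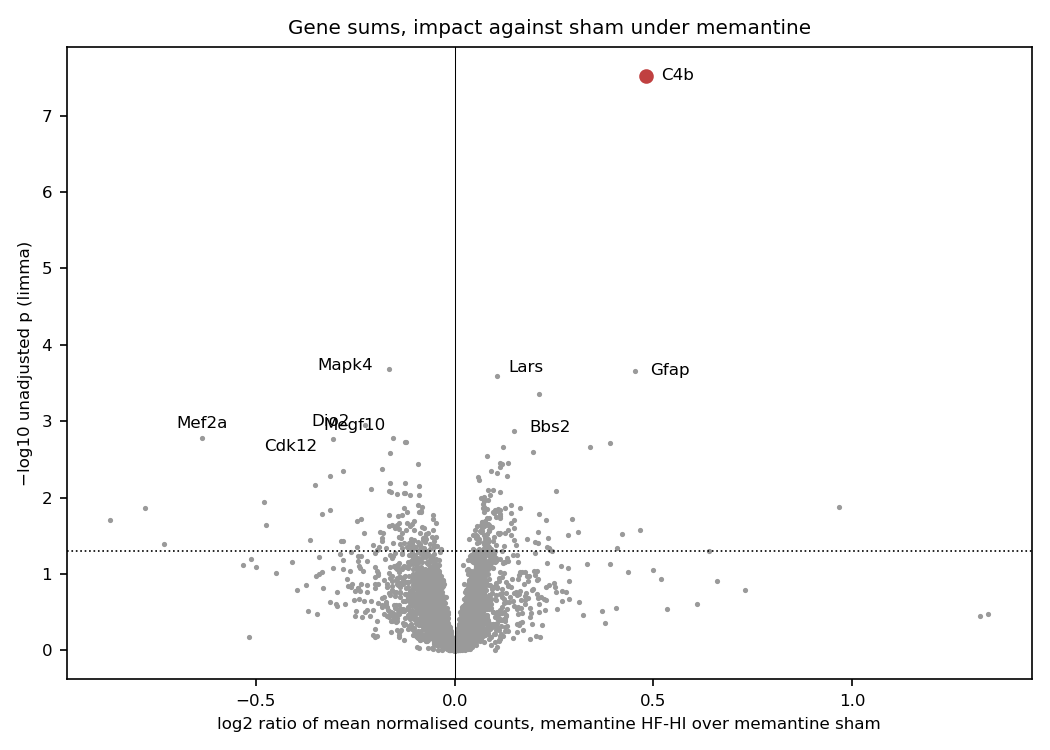
Log2 ratio of mean normalised counts, memantine HF-HI over memantine sham (horizontal axis), against −log10 of the unadjusted limma p (vertical axis) for 5863 gene sums. The dotted line marks p = 0.05; C4b, in red, is the only point past the adjusted threshold of 0.1, and the next by p are Mapk4, Gfap and Lars.

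The other transcripts with the smallest p-values were named for their rank and none passed the adjusted threshold. Lars, the cytosolic leucyl-tRNA synthetase, ran from 1110 to 1240 normalised counts in sham, median 1183, and from 1189 to 1351 in HF-HI, median 1273. The difference of 0.11 ± 0.03 in log2 counts was small, but 7 of 10 HF-HI libraries lay above the highest sham library (adjusted p = 0.351, limma). Mapk4, an atypical MAP kinase, ran from 1704 to 2173 in sham, median 1924, and from 1540 to 1854 in HF-HI, median 1719. All 10 HF-HI libraries were below the Mapk4 sham mean, the log2 difference was -0.16 ± 0.04 and the adjusted p was 0.351 (limma).

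A further 4 transcripts were higher in memantine HF-HI, each with an adjusted p of 0.809 (limma). Bbs2, a part of the ciliary trafficking complex that is mutated in Bardet-Biedl syndrome, had means of 597 ± 27.9 and 661 ± 55.2 normalised counts (SD, n = 10). Vwf, the clotting factor that endothelial cells store, had 488 ± 75.7 and 639 ± 148. The 7 measured genes of the endothelial and mural list, which does not include Vwf, held none at an unadjusted p under 0.05 and had a median log2 ratio of -0.06. Rnf19a, a ubiquitin ligase, had 1082 ± 87.3 and 1178 ± 51.4. Mxi1, a repressor that competes with MYC for MAX, had 687 ± 142 and 871 ± 128, and its ranges of 535 to 958 and 649 to 1009 overlapped widely.

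Igsf11, an adhesion protein of excitatory synapses, had means of 966 ± 55.9 and 886 ± 39.8 normalised counts, with all 10 HF-HI libraries below the sham mean. Ergic1, a membrane protein between endoplasmic reticulum and Golgi, had 1653 ± 94.8 and 1520 ± 69.2, again with all 10 below. Both had an adjusted p of 0.809 (limma). Cdk12, a kinase of the transcribing polymerase, had gene sums of 1409 ± 218 and 1140 ± 170, with 9 of 10 HF-HI libraries below the sham mean (adjusted p = 0.862, limma).

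Mef2a, a transcription factor of the MEF2 family, had an uneven pattern that its mean hides. All 10 sham libraries lay between 2964 and 3755 normalised counts. In HF-HI, 6 libraries lay between 2774 and 3629, and the other 4 had 306, 335, 513 and 1203. In the saline arm 1 sham library had 1145, and the saline HF-HI libraries ran from 2650 to 3678. The mean log2 difference of -1.15 ± 0.35 (SE; adjusted p = 0.809, limma) thus comes from 4 of 10 libraries. Only 1 Mef2a transcript was in the table, so counts assigned to another transcript of the gene were not analysed here.

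Of the transcripts with the largest log2 ratios among those at an unadjusted p under 0.05, 6 are described, and they were uneven in the same way. Higher in mean were Clcn4 NM_011334, a transcript of a chloride-proton exchanger, at 1006 ± 899 and 2064 ± 1199 normalised counts, and Dcaf12l1 at 374 ± 319 and 731 ± 332. Lower in mean were Fkbp1a NM_001302078, a transcript of the FK506-binding protein, at 894 ± 749 and 295 ± 251, Aldoa NM_001177307, of the glycolytic enzyme aldolase A, at 2185 ± 2071 and 1098 ± 1531, Dctn1 NM_007835, of the dynein partner dynactin, at 1674 ± 1231 and 878 ± 998, and Pcdh11x NM_001271809, a protocadherin, at 963 ± 181 and 528 ± 344. The groups of all 6 overlapped and the adjusted p was 0.967 for each (limma). Clcn4 NM_011334, 1 of 3 tabulated Clcn4 transcripts, had a count of 0 in memantine sham replicates 5 and 6 and in memantine HF-HI replicate 9. Pcdh11x NM_001271809 had a count of 0, among the memantine libraries, only in HF-HI replicate 1.

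NMDA receptor genes, which encode the channel that memantine blocks, did not differ detectably between impact and sham. None of the 6 measured passed an unadjusted p of 0.05, and their median log2 ratio was -0.03. Grin1, the obligatory subunit, ran from 5308 to 6959 normalised counts in sham and from 5303 to 6927 in HF-HI, with medians of 5886 and 5849. The ranges coincided almost entirely, and the 95% interval of the log2 difference ran from -0.12 to 0.07. Grin2b, a regulatory subunit, had means of 10538 ± 592 and 10343 ± 427, with an interval of -0.09 to 0.04. Grin2a had means of 5326 ± 370 and 5204 ± 339, Grin2c 687 ± 84.9 and 697 ± 64.9, and Grin3a 726 ± 147 and 794 ± 175. Grina, a membrane protein named for the receptor but no subunit of it, had 3772 ± 206 and 3675 ± 206.

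Of the 13 measured AMPA receptor genes and their partners, 2 were lower at an unadjusted p under 0.05, none was higher, and 10 had a negative difference. Among all gene sums, 2.1% were lower and 2.34% higher at that level. The count of lower genes on the list was 1 without memantine sham replicate 1, 4, 5, 6, 7 or 10. It was also 1 without HF-HI replicate 1, 3, 4, 6 or 8, and 3 without sham replicate 9. With only the 20 memantine libraries, with or without a replicate block, it was 1. It was 1 too after quantile normalisation and with the choroid plexus level as a covariate, added after seeing the data. With the features of lowest level left out, none of the 9 remaining genes was lower. Both genes that were lower with all libraries were partners rather than channel subunits. Nptx2, a secreted pentraxin that gathers AMPA receptors at synapses and is induced by activity, ran from 477 to 817 normalised counts in sham, median 629, and from 363 to 609 in HF-HI, median 526. All 10 HF-HI libraries were below the Nptx2 sham mean (log2 difference -0.28 ± 0.09 SE, adjusted p = 0.962, limma). Cacng2, the auxiliary subunit stargazin, had means of 725 ± 61.1 and 676 ± 47.2.

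The 4 channel subunits had similar means in both groups, but Gria2 was uneven between libraries. Gria1 had means of 8558 ± 350 and 8472 ± 524, with an interval of -0.10 to 0.07 in log2 counts, and Gria2 had 19627 ± 2581 and 19547 ± 3442, with an interval of -0.19 to 0.16. Gria2 was at 15610, 15938 and 16565 in sham replicates 2, 7 and 9, and from 19556 to 22202 in the other sham libraries. In HF-HI replicates 2, 3, 8 and 9 it was at 15800, 14321, 16466 and 16178, and from 20556 to 22942 in the others. Saline sham libraries ran from 21006 to 22979. Gria3 had 7498 ± 286 and 7555 ± 307, and Gria4 3542 ± 188 and 3627 ± 189. Among the other partners, Cacng3 had 623 ± 103 and 572 ± 74.6, Cnih3 874 ± 36.2 and 840 ± 104, Cnih2 824 ± 64.9 and 811 ± 56.9, and Shisa7 1219 ± 297 and 1126 ± 266. Gsg1l had 950 ± 192 and 918 ± 88.3, Nptx1 5298 ± 562 and 5093 ± 697, and Nptxr 7007 ± 1403 and 7025 ± 963. None of these passed an unadjusted p of 0.05.

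Other synaptic lists held few genes at an unadjusted p under 0.05, a level at which 2.34% of all gene sums were higher and 2.1% lower. The median log2 ratio of the presynaptic list was -0.02, against -0.00 for all gene sums. Among 51 presynaptic genes 1 was higher and 3 were lower, with 38 negative differences, and among 40 postsynaptic density genes 1 was lower, Dlgap2, a scaffold protein, at 1472 ± 215 and 1242 ± 195 normalised counts. The lower presynaptic genes were Syngr1, a synaptic vesicle protein, Syn2, which holds vesicles in reserve, and Syt11. The Syn2 transcript NM_001111015 stood apart: it ran from 1410 to 1950 in sham, median 1724, and from 1014 to 1715 in HF-HI, median 1319. For this transcript 7 of 10 HF-HI libraries lay below the lowest sham library (adjusted p = 0.809, limma). No kainate or metabotropic glutamate receptor gene (11 measured), GABA receptor gene (14) or voltage-gated channel gene (60) was at that level.

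Immediate early genes and clock genes differed little after impact under memantine. In that arm 2.34% of all gene sums were higher and 2.1% lower at an unadjusted p under 0.05. Of 16 measured immediate early genes only Nptx2, described above, was at an unadjusted p under 0.05, and the list's median log2 ratio was -0.00. The same list in the saline arm had a median of 0.21, with 8 higher and 2 lower, while 5.1% of all gene sums were higher and 5.59% lower at that level under saline. The interaction of impact and drug had an unadjusted p under 0.05 for 3 of the 16. Over all gene sums the share was 3.6%. The 3 were Nr4a1, Dusp6 and Klf10, chosen for mention after their values were seen. Nr4a1, an activity-induced nuclear receptor, had means of 863 ± 338 and 873 ± 243 normalised counts under memantine, and of 720 and 1187 under saline (interaction p = 0.0311, unadjusted, limma). Dusp6, a phosphatase of ERK, had 1147 ± 212 and 1206 ± 178 under memantine, and Klf10 561 ± 81.3 and 547 ± 64.0.

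Of 19 measured clock genes 1 was lower, Per3, at 1495 ± 133 and 1314 ± 249 normalised counts, and the median log2 ratio was -0.02 against 0.09 in the saline arm. Lower at an unadjusted p under 0.05 were 2.1% of all gene sums. The interaction had an unadjusted p under 0.05 for 6 of the 19. Over all gene sums 3.6% had an interaction p that low. The saline sham mean of the clock output gene Dbp was 1006 normalised counts, against 1388 ± 129 in memantine sham. Dbp was not named by rank of p, and the sham groups were not tested against each other. The time of day at which each mouse was killed is not in the labels, and its part in these values was not tested.

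Among housekeeping lists, the 76 cytosolic ribosomal protein genes held 10 higher and 1 lower at an unadjusted p under 0.05, and 56 positive differences. Of all gene sums, 2.34% were higher and 2.1% lower at that level. The median log2 ratio of the list was 0.03, against -0.00 for all gene sums. The differences were small: Rpl4 had means of 5654 ± 195 and 5901 ± 208 normalised counts, a difference of 4.37%, Rpl12 of 5.09%, Rpl23 of 5.45% and Rps27a of 4.87%. The count of higher ribosomal genes depended on single libraries. It was 19 without memantine sham replicate 9, and 4 without memantine HF-HI replicate 8. Without HF-HI replicate 1, sham replicate 10 or sham replicate 4 it was 5.

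In the cholesterol synthesis list, 4 of 16 measured genes were lower at an unadjusted p under 0.05 and none was higher. Of all gene sums, 2.1% were lower and 2.34% higher at that level. Of the 16 differences 15 were negative, and the median log2 ratio was -0.06, against -0.00 for all gene sums. The count of lower genes was 2 without memantine sham replicate 3 or 6 or HF-HI replicate 6 or 10, and 1 without sham replicate 8 or HF-HI replicate 1. It was 2 after each library was centred on its median. Among the 4 were Fdft1, the squalene synthase, at 1368 ± 74.4 and 1266 ± 132 normalised counts, Hmgcs1, an early enzyme, at 5125 ± 424 and 4784 ± 291, and Fdps at 591 ± 54.7 and 545 ± 34.2. Each had an adjusted p of 0.962 (limma). The saline arm had a median of -0.07 for this list, also with 4 lower and none higher. Under saline 5.59% of all gene sums were lower and 5.1% higher at that level.

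In the other lists few genes were at an unadjusted p under 0.05, a level that 2.34% of all gene sums reached as higher and 2.1% as lower. Of 34 proteasome genes 2 were higher, Psmb2 and Psmb1, and of 33 chaperones Dnajb1 was higher and Hspa5 lower. In the MAP kinase list of 39 genes Mapk4 and Spry2, a feedback inhibitor of receptor tyrosine kinases, were lower. Of 17 pump genes and of 13 interneuron genes 1 each was lower. None was at that level among 68 oxidative phosphorylation, 34 neurodegeneration, 22 glucose and lactate, 11 glucocorticoid response, 23 oligodendrocyte and 6 oligodendrocyte precursor genes. Their median log2 ratios lay between -0.02 and 0.03.

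**Figure D3:**
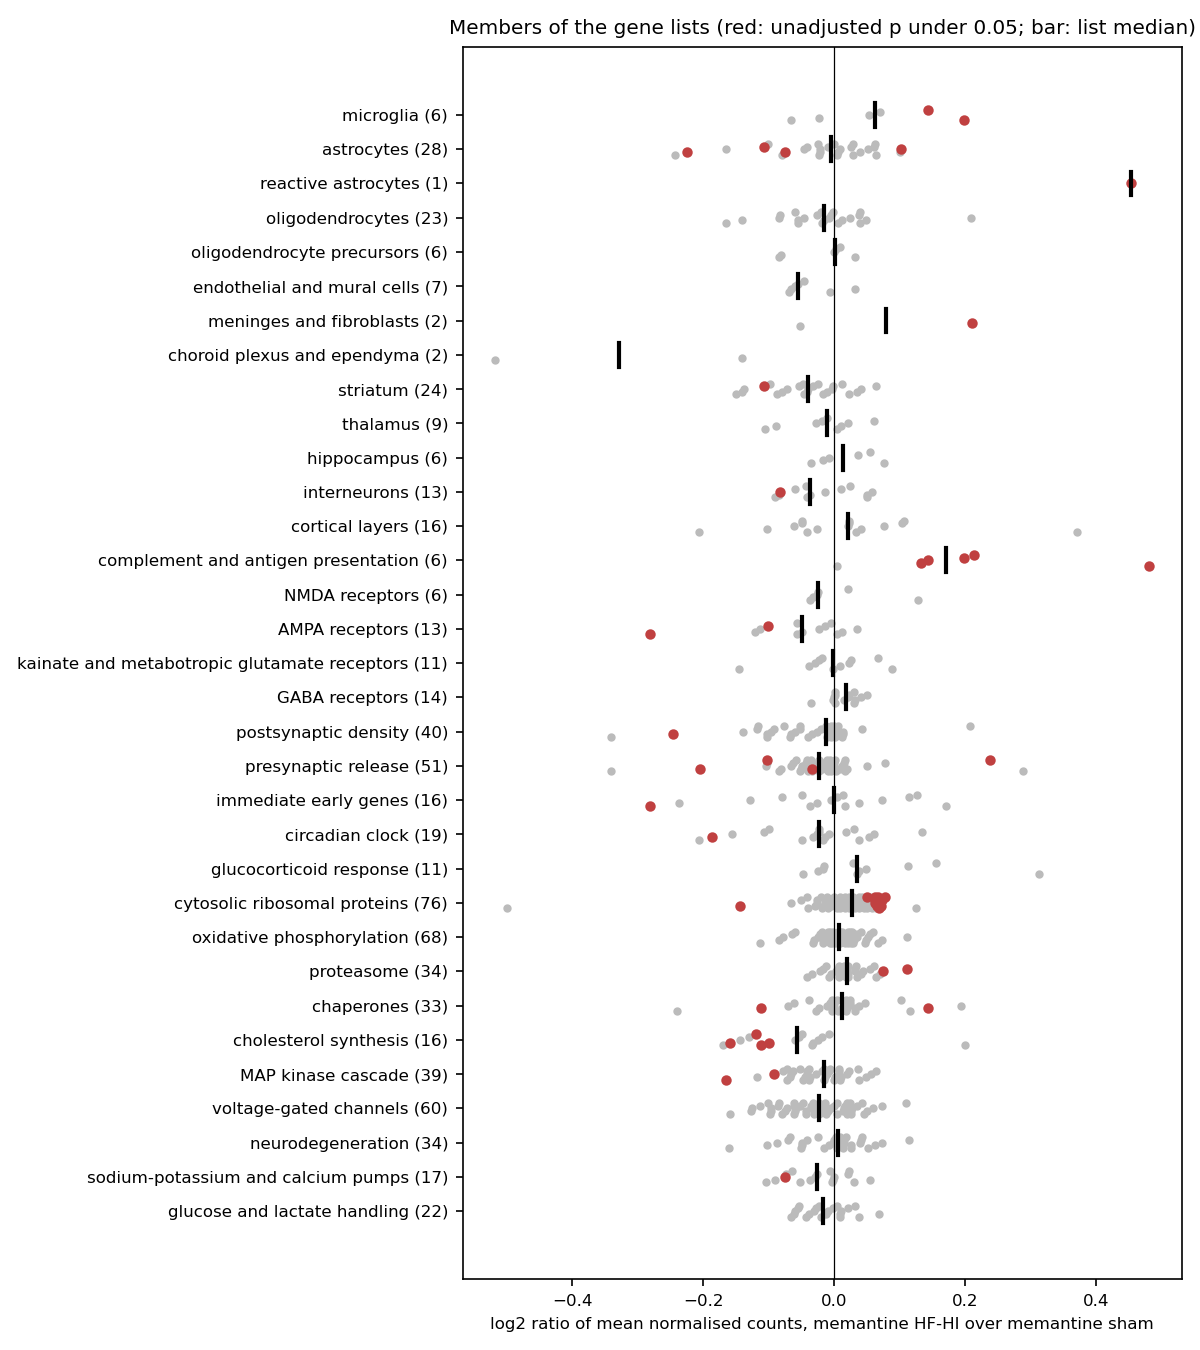
Log2 ratio of mean normalised counts, memantine HF-HI over memantine sham (horizontal axis), for every measured member of each gene list, with the number of members in brackets. Red points had an unadjusted p under 0.05 and black bars are list medians; the complement list, at 0.17 over 6 genes, and Gfap alone lie farthest to the right.

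Markers of regions outside the cortex varied between libraries in both groups. The 2 measured choroid plexus genes, Ttr and Enpp2, had a mean relative level of 0.339 to 3.75 in sham and 0.380 to 2.82 in HF-HI. Thalamic markers (9 measured) ran from 0.700 to 1.71 and from 0.722 to 1.60, and striatal markers (24 measured) from 0.875 to 1.24 and from 0.792 to 1.12. Hippocampal markers (6 measured) ran from 0.903 to 1.08 and from 0.938 to 1.08, and markers of cortical layers (16 measured) from 0.917 to 1.07 and from 0.837 to 1.15. Of all these markers only the striatal gene Ptpn5 was at an unadjusted p under 0.05 between the groups. With the choroid plexus, thalamic, striatal or oligodendrocyte level added as a covariate, an alternative chosen after seeing the data, the adjusted p of the C4b transcript stayed between 2.32e-05 and 0.000498. No blood marker was among the tabulated genes. Of the 2 meningeal genes measured, Col12a1 was higher, at 633 ± 89.7 and 732 ± 100 normalised counts (adjusted p = 0.962, limma).

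Isoform ratios were tested for 1674 transcripts of 718 genes that had at least 2 transcripts in the table. Of these ratios 83 (4.96%) had an unadjusted p under 0.05, 40 of them higher in HF-HI, and none passed the adjusted threshold (limma). In a gene with 2 tabulated transcripts the ratios are mirror images that move in opposite directions. Such a gene can be counted more than once, and the split by direction is largely set by this construction. The 3 genes described here were named for their rank by p. Ap2b1, the beta subunit of the AP-2 adaptor of clathrin-coated pits (chr11:83298719-83405035), has a form with a short extra coding exon, NM_001035854, and a form without it, NM_027915. Both were in the table. The exon of 42 bases (chr11:83364795-83364836, plus strand, mm10, GENCODE vM21) is shown in capitals between 15 coding bases on either side, since it is the coding sequence by which reads can be assigned to one form.
Ap2b1 alternative exon: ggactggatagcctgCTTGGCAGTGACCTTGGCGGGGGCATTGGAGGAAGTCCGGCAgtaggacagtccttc
The form without this exon took 9.75 to 24.8% of the Ap2b1 count in sham, median 17.9%, and 13.6 to 40.9% in HF-HI, median 26.7%. Of the 10 HF-HI libraries 6 were above the highest sham library (adjusted p = 0.577, limma).

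Crmp1, a collapsin response mediator of axon guidance, has transcripts with different first coding exons. The short first exon of NM_007765 contributes 39 coding bases (chr5:37246058-37246096, plus strand), shown from the start codon, in capitals, because it sets that form apart. The other form, NM_001136058, starts with 381 coding bases of its own.
Crmp1 short first exon: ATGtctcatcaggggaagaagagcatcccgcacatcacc
NM_007765 ran from 543 to 1277 normalised counts in sham, median 984, and from 312 to 1011 in HF-HI, median 642, with 9 of 10 HF-HI libraries below the sham mean. NM_001136058 took 43.6 ± 11.0% of the gene's count in sham and 61.3 ± 15.3% in HF-HI (SD, n = 10; adjusted p = 0.577, limma). The ranges overlapped.

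Clasp1, a protein that stabilises growing microtubule ends, had 3 transcripts in the table. NM_001293301, which lacks 5 coding segments of 3 to 117 bases that NM_001293300 has, ran from 515 to 1652 normalised counts in sham, median 813, and from 185 to 866 in HF-HI, median 572. It took 24.9 ± 8.25% of the gene's count in sham and 14.9 ± 6.91% in HF-HI (adjusted p = 0.577, limma). These counts were shared out between overlapping transcripts before deposit, so single-transcript values of such genes are uncertain.

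**Figure D4:**
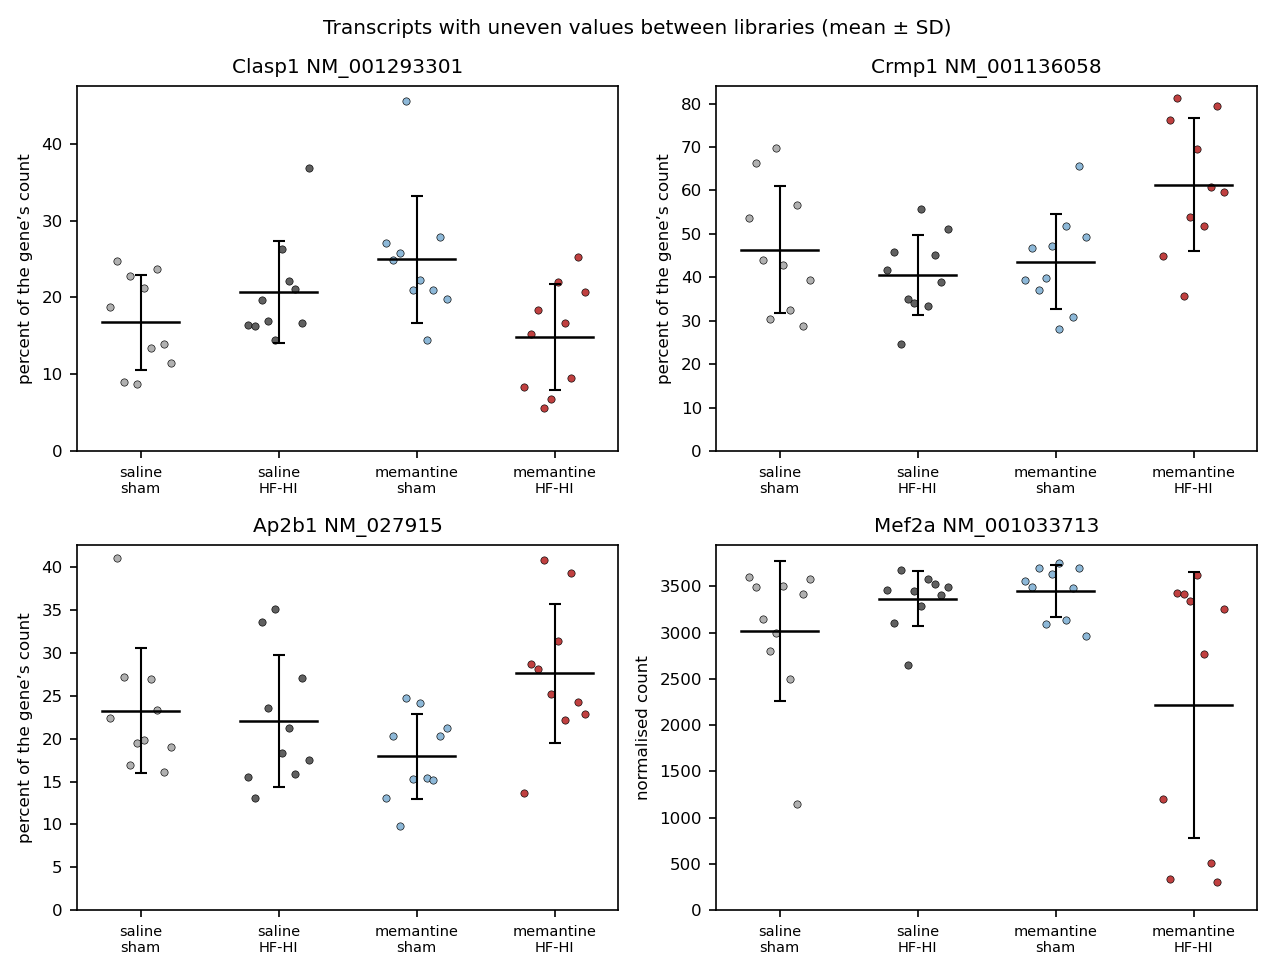
Share of the gene's count taken by 1 transcript of Clasp1, Crmp1 and Ap2b1 (percent), and normalised counts of Mef2a, in each of the 40 libraries by group. Points are libraries, bars the mean and SD of 10; 4 memantine HF-HI libraries (306 to 1203) and 1 saline sham library (1145) lie far below the other Mef2a points.

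Differences between the drug arms were tested as an interaction. For transcripts 255 of 6831 (3.73%) had an unadjusted p under 0.05, 248 with voom on recovered reads, and for gene sums 211 of 5863 (3.6%), 215 with voom. None passed the adjusted threshold with either tool, and the smallest adjusted p in limma was 0.999 for transcripts. C4b was higher after impact under saline too, at 550 ± 57.9 in sham and 693 ± 62.8 in HF-HI (SD, n = 10; adjusted p = 0.0319, limma), a rise of 26.0%. The C4b interaction of 0.14 ± 0.09 in log2 counts had an unadjusted p of 0.201. Gfap had 1253 ± 230 and 1546 ± 347 under saline, and its interaction p was 0.340, unadjusted. For both genes the responses in the 2 arms were not shown to differ, nor shown to be equal.

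Dio2 and Igsf11 had nearly the same difference in both arms. Under saline Dio2 had means of 2344 ± 262 and 2006 ± 218 normalised counts, and the unadjusted interaction p was 0.941. Igsf11 had 939 ± 67.6 and 861 ± 43.6 under saline, and its interaction p was 0.980. Megf10, Lars and Cdk12 differed by -0.441%, 1.19% and -0.283% in mean count under saline. Megf10 had 893 ± 62.6 and 889 ± 61.1, Lars 1241 ± 46.9 and 1256 ± 46.5, and Cdk12 1327 ± 172 and 1323 ± 190. The unadjusted interaction p was 0.0284 for Megf10, 0.0218 for Lars and 0.0243 for the Cdk12 sum. Other transcripts named by p differed more under saline, among them Mapk4 by -4.61% (unadjusted p = 0.0992) and Clasp1 NM_001293301 by 22.2% in the opposite direction (0.202, limma). Vwf had 513 ± 76.4 and 595 ± 97.2 under saline (unadjusted p = 0.0759). All were chosen for their memantine difference, and no interaction passed the adjustment.

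The 3 transcripts with the smallest interaction p in each direction had opposite signs in the 2 arms or a difference in 1 arm. Positive were Picalm NM_001252521, of a clathrin assembly protein, at 544 ± 37.4 and 610 ± 56.4 normalised counts under memantine and 587 ± 41.5 and 541 ± 62.7 under saline, Fam120c, at 2444 ± 97.7 and 2469 ± 96.7 under memantine and 2553 ± 130 and 2358 ± 77.6 under saline, and Lrrtm4 NM_001282102, of a postsynaptic adhesion protein. Negative were Ank, a pyrophosphate exporter, Clasp1 NM_001293301 and Tef NM_153484, of a clock-controlled transcription factor. Tef NM_153484 ran from 5093 to 7297 in memantine sham, median 6328, and from 2872 to 6437 in memantine HF-HI, median 5303. Under saline its sham mean was 4536 ± 1095 and its HF-HI mean 5318 ± 665. The gene sum of Tef had means of 7614 ± 422 and 7443 ± 612 under memantine, closer than those of the single transcript.

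**Figure D5:**
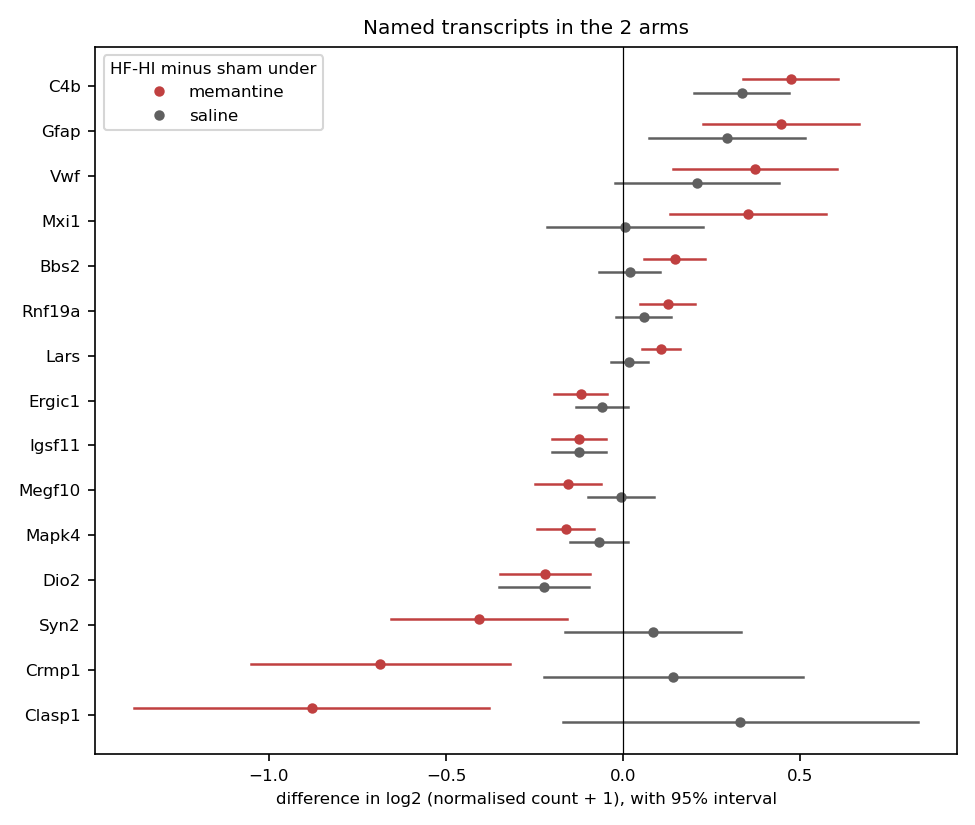
Difference between HF-HI and sham in log2 of the normalised count plus 1 (horizontal axis), with its 95% interval, for transcripts named by p in the memantine arm and described in the text, other than Mef2a, under memantine (red) and saline (grey). Intervals for C4b, Gfap, Igsf11 and Dio2 exclude 0 in both arms, and those of Syn2, Crmp1 and Clasp1 lie on the negative side under memantine and include 0 under saline.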

How the data were processed

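Total RNA of cortex was sequenced in 40 libraries. The paper's methods give depletion of ribosomal RNA, stranded paired reads, STAR alignment to mm10, eXpress counts per transcript and DESeq2; the submitters' processing notes name HISAT2, StringTie and mm10. The deposited table holds log2-like values, the variance-stabilised counts that the authors made with DESeq2. They were inverted to normalised counts: every value under 5000 (92.3% of all) was a whole multiple of the library's step within 0.1 reads, with size factors of 0.859 to 1.14. At a count of 1000, 1 log2 unit of count equals 0.400 deposited units. Since the values were not raw counts, limma 3.58.1 (R 4.3.3) was fitted to the deposited scale, with group means over 40 libraries and a mean-variance trend, in place of the authors' Wald test. Differences ± SE come from the same fit on log2 of the count plus 1. P-values were adjusted by Benjamini-Hochberg over all features, with calls under 0.1.

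Symbols were found for 6819 of 6831 transcripts (99.8%) in RefSeq (GRCm38.p6) and GENCODE vM21. Transcripts of a symbol were added up to gene sums. Isoform values were log2 of a transcript's count over the rest of its gene, each plus 10. The scripts were tested on simulated data. Permutation tests used scipy 1.17.1 and numpy 2.4.6, and alignment biopython 1.88.

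Genes were named by rank of p (10 higher and 10 lower transcripts, 5 and 5 gene sums, 4 isoform ratios, 3 and 3 interactions), by largest ratio (4 and 4 at p under 0.05) and from lists: every member of 5 lists, at most 4 with p under 0.05 of the others. A few genes and transcripts picked by this rule are not reported here, though list counts include them. Members and lists were chosen with earlier results of these data known. Alternatives were leaving out each library, a replicate block, library weights, a robust prior, other scalings and pseudocounts, voom, a filter on low values, and marker covariates added after seeing the data.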

Additional observations from a re-analysis of the deposited data

Results flagged for a closer look

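In 5 of the 34 groups of 10 libraries examined for the named transcripts and gene sums, 1 library stood apart from the others, its gap to the nearest library being over 0.466 of the group's whole range. Chance marks about 1 in 20 groups. In memantine HF-HI, C4b had 878 normalised counts in replicate 7 against 727 in the next library and the Cdk12 sum 1527 in replicate 1 against 1272. In memantine sham, Clasp1 NM_001293301 had 1652 in replicate 4 against 960, Crmp1 NM_007765 had 543 in replicate 9 against 887, and Ergic1 had 1427 in replicate 9 against 1604. The adjusted p of the C4b transcript stayed between 8.99e-05 and 0.00120 when any 1 of the 20 libraries was left out (limma). Memantine sham replicate 9, which holds 2 of the 5 values, also had the widest spread around its group mean of the 20 libraries.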

How the results depend on the processing

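C4b kept its direction in every fit that tested it, and the transcript passed in 32 of 33 alternatives, with adjusted p between 2.32e-05 and 0.248. It missed in the fit with a replicate block on the 20 memantine libraries alone, where no transcript and no gene sum passed (0 each; 341 and 285 at an unadjusted p under 0.05, limma). Dropping the 25% of features with the lowest level removed C4b itself and left 0 and 0. With the oligodendrocyte covariate, chosen after seeing the data, 2 transcripts and 2 gene sums passed, Gfap joining C4b at 0.0584 and 0.0399; Gfap passed in no other alternative (up to 0.778). The count of transcripts at an unadjusted p under 0.05, 315, became 513 with library weights and ran from 253 to 525 when 1 library was left out, the highest without memantine sham replicate 9; 1 to 2 transcripts passed, 2 without memantine HF-HI replicate 5. For gene sums, 260 became 548 with library weights and ran from 190 to 490, the highest again without sham replicate 9, with 1 passing each time. Isoform ratios passing went from 0 to 2 with the 20 memantine libraries alone, 2 with a replicate block on them, and 0 to 2 when 1 library was left out (2 without sham replicate 1 or HF-HI replicate 5). These counts are of ratios, not of genes. The interaction for gene sums, 211, became 384 with library weights and 138 without those lowest features, with none passing. Same-numbered deviations in memantine sham and HF-HI correlated between -0.15 and 0.42, over 0.1 in 3 of 10 pairs. Only 1 of 10 libraries, replicate 1 (0.42), correlated best with its own number. Whether same-numbered libraries shared a batch was not tested. With the replicate block on all 40 libraries, 314 transcripts, 258 gene sums and 86 isoform ratios were at an unadjusted p under 0.05, and C4b passed at 0.000738. The lowest mean count of 549 left weakly expressed genes untested, and 0.136% of values were at a count of 0.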
